A study of Mus musculus with 16 samples.

Results

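The RNA of 10 growth factor receptor genes and their regulators was followed across 4 mouse intestinal tumour organoid lines, each kept in full medium and in 1 changed medium. The genes include the EGF receptor family members Egfr, Erbb2 and Erbb3, the inhibitor gene Errfi1 and Lrig3, a relative of Lrig1. The others are the HGF receptor gene Met, the insulin and IGF receptor genes Igf1r and Insr, and the adaptor genes Irs1 and Irs2. They were chosen by name, with earlier results of these data known, to look for a rise of other receptors when EGF is taken away. They are 10 of the 27179 gene IDs in the deposited table. All 10 passed the filter on low values in every comparison.

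Poly(A) RNA was sequenced in 16 libraries from triple mutant organoids, which grow as epithelial structures in a basement membrane gel. Lines MTO54 and MTO220 are AKP organoids, which the labels mark as wild type for Tgfbr2, and lines MTO100 and MTO101 are APT organoids. In the names of this organoid collection A stands for Apc, P for Trp53 and T for Tgfbr2, so that all 4 lines share mutations of Apc and Trp53. Each line contributes 1 library per medium from each of 2 pools, and pool 2 was collected 1 passage after pool 1. The labels do not give the animals of origin, so p-values within a line measure the spread between consecutive passages, which are also different pools. The medium comparisons draw on 2 lines per genotype, with pools as replicates, and do not speak for other lines of that genotype.

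Full medium held EGF at 50 ng/ml, noggin at 100 ng/ml and galunisertib, an inhibitor of the TGF-beta receptor kinase, at 1 µM. The 4 APT libraries without EGF lacked only the EGF, and the 4 AKP libraries in TGF-beta medium lacked galunisertib and held TGF-beta 1 at 5 ng/µl, as the labels write it. Full-medium cultures were collected on day 4 and both changed media on day 7, so the medium and the day cannot be told apart. MTO54 was at passages 14 and 15, MTO220 and MTO100 at 10 and 11, and MTO101 at 8 and 9.

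Receptors of the EGF family sit in the membrane, pair up when a ligand binds, and pass the signal to the RAS to ERK and PI3K to AKT cascades. EGFR binds EGF itself, ERBB2 has no known ligand and serves as the preferred partner of the others, and ERBB3 binds neuregulins and, with a weak kinase of its own, recruits PI3K. In the intestinal crypt EGF from Paneth cells sustains division, and the insulin and IGF receptors feed the same cascades through the docking proteins IRS1 and IRS2.

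The libraries held between 17056053 and 22251986 reads on genes, and replicate pools correlated at 0.974 to 0.992 across genes. Summed epithelial markers were high throughout, with Epcam alone between 9578 and 32481 normalised reads, a count of reads divided by the library's size factor. Cdx1, on the same list, stayed under 10 in all AKP libraries in TGF-beta medium. Trp53 stood at 91.2 to 252 normalised reads in MTO54, MTO100 and MTO101 but at 1916 to 4207 in MTO220. Tgfbr2 stood at 877 to 3353 normalised reads in the APT lines and at 2349 to 5315 in the AKP lines; gene totals do not read the alleles. In these bulk samples fewer cells of a type and less RNA per cell cannot be told apart.

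The promoters of Egfr, Irs1 and Irs2 are given because EGFR is the receptor of the ligand that was removed, and because the 2 adaptor genes moved in opposite directions in TGF-beta medium. Each is the RefSeq sequence of 250 bases before and 50 bases after the annotated start, in build GRCm38.p6, read 5′ to 3′ on the gene's strand. Capitals mark a match to 1 of 4 short motifs searched on both strands: FOXO (GTAAACA), AP-1 (TGACTCA), ETS (CCGGAAG) and E-box (CACGTG).
Egfr promoter, chr11:16751953-16752252, plus strand: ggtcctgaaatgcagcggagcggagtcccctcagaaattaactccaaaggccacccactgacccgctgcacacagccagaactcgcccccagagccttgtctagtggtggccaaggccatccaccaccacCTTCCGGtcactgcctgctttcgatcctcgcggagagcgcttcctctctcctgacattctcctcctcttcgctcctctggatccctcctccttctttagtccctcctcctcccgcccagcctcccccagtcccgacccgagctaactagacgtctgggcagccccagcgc
Irs1 promoter, chr1:82291390-82291689, minus strand: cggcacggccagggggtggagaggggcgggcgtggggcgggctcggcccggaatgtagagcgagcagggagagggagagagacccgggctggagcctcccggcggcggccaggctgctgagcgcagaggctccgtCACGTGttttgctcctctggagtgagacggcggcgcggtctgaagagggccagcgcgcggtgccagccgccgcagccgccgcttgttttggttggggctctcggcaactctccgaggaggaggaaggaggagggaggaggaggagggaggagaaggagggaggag
Irs2 promoter, chr8:11008880-11009179, minus strand: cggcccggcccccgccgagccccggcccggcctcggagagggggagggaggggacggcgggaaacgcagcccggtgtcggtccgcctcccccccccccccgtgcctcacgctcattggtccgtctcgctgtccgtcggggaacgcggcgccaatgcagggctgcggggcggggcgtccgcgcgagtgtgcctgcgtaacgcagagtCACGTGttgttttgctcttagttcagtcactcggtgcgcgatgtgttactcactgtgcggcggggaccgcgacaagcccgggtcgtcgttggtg

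Egfr held an ETS match whose first base lay at position -120 from the start, read on the reverse strand. Irs1 and Irs2 each held the palindromic E-box, beginning at -115 and -44. The same E-box stood in the Lrig3 promoter at -98 and in the Met promoter at -126, so that 4 of the 8 genes with a promoter in the table held it. Met alone among the 8 also held an AP-1 match, at -54. Erbb2, Igf1r and Errfi1 held none of the 4 motifs, and Erbb3 and Insr had no entry. Of all 32851 promoters in the table, 7.15% held the E-box, 8.86% the ETS motif, 5.20% the AP-1 motif and 3.65% the FOXO motif. The Irs1, Irs2 and Met promoters were 71.3%, 72.0% and 75.7% G and C, that of Lrig3 66.3% and that of Egfr 62.3%. Among those with none of the 4 motifs, Igf1r stood at 76%, Erbb2 at 66% and the Errfi1 promoters at 42% and 66.7%. The median over all promoters was 52.7%. No 2 matches overlapped, and a match is a run of letters, not a measured binding site.

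Per length of exon, Erbb2, Errfi1 and Erbb3 had the highest means of the 10 RNAs in all 4 groups. In APT organoids in full medium Erbb2 stood at 26.8 ± 12 RPKM (reads scaled to exon length and library depth; mean ± SD, n = 4), Errfi1 at 11.6 ± 3.58 and Erbb3 at 9.11 ± 3.67. Met followed at 4.13 ± 1.95 RPKM, and Irs1, Egfr, Insr, Lrig3, Irs2 and Igf1r lay between 2 ± 1.43 and 0.963 ± 0.649. Every pair of neighbours in this order overlapped in range. In AKP organoids in full medium the order opened with Errfi1 at 21 ± 6.32 and Erbb2 at 19.9 ± 3.21 RPKM, and the only gap between neighbours was from Erbb3 at 12.8 ± 4.32 to Met at 4.25 ± 2.7. Lrig3 was last there, at 0.498 ± 0.268 RPKM.

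Without EGF, Egfr stood at 3.5 ± 0.635 RPKM in APT organoids and Erbb2 at 32.7 ± 11.3, so the receptor for the missing ligand remained far below its partner in level. In TGF-beta medium Egfr reached 6.81 ± 2.61 RPKM in AKP organoids against 14.1 ± 1.12 for Erbb2, and moved from the 7th to the 5th place of the 10. Irs2 was last in that group, at 0.411 ± 0.216 RPKM and below the range of every other member. Exon lengths and library totals enter this scale, and differences in how well each RNA was captured do not. Scaled to library totals, the median of all genes tested rose by 0.31 log2 without EGF and by 0.14 in TGF-beta medium.

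**Figure D1:**
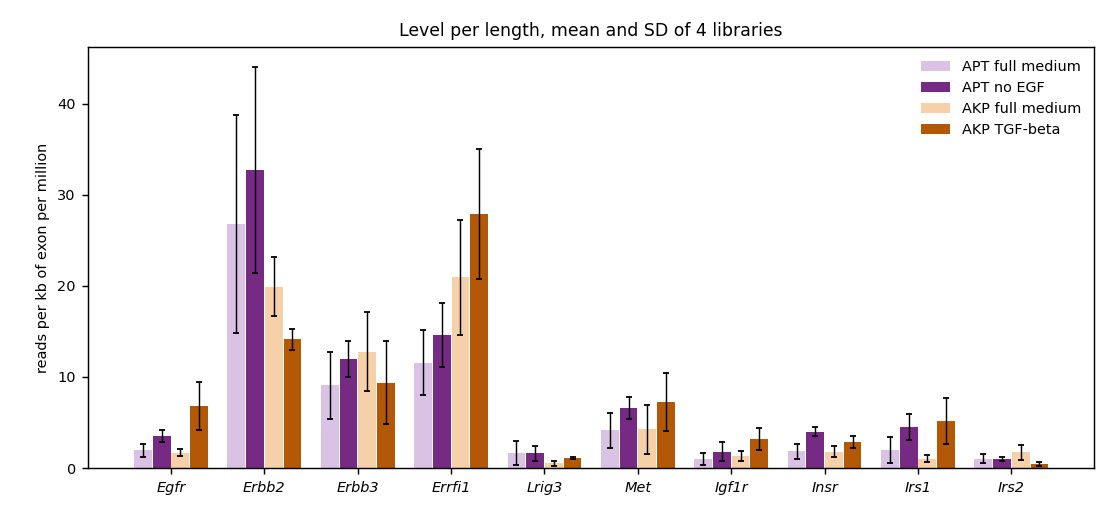
Bars give the mean level per length (RPKM, linear axis from 0) of each gene in 4 groups, and lines give the SD of 4 libraries. Erbb2, Errfi1 and Erbb3 are the tallest in each genotype in full medium. Bars of Egfr, Igf1r, Irs1, Met, Insr, Errfi1 and Lrig3 are taller in the changed medium of both genotypes, for Lrig3 in APT only from 1.62 to 1.64.

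Removal of EGF from APT organoids addresses whether other receptors rise when the ligand is absent. Compared with full medium, 3 of the 10 RNAs rose and none fell: Egfr, the insulin receptor gene Insr and the adaptor gene Irs1, by 1.6-fold, 1.96-fold and 2.23-fold. Erbb2 and Erbb3, the other EGF family receptor genes measured here, and Met did not pass the test, nor did Igf1r, the inhibitor gene Errfi1, Lrig3 or Irs2. Of the 14373 genes tested 26.8% were called higher, 21.7% lower and 48.5% in either direction at an adjusted p under 0.05 (limma-trend, Benjamini-Hochberg), so 3 of 10 higher is near the share of all genes. The median change of the 10 was 0.45 on the log2 scale, against 0.077 over all genes tested.

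Egfr read 360.4 and 397 in MTO100 and 354 and 635 in MTO101 in full medium, and 821 and 672 in MTO100 and 592 and 654 in MTO101 without EGF, in normalised reads of pools 1 and 2. The 4 libraries without EGF were above the other full-medium libraries, but the MTO101 pool 2 library in full medium lay among them, so the groups overlapped. The change was 0.68 ± 0.22 (SE) on the log2(value + 1) scale, with an adjusted p of 0.0222 in limma. Leaving out any of 3 libraries took the call away: without the pool 1 libraries of MTO100 in full medium, MTO100 without EGF or MTO101 in full medium the change was 0.60, 0.57 and 0.57. Tested line by line, Egfr was called in MTO100 and not in MTO101. With the pools of each line averaged it was not called.

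Erbb2 read 3462 and 4032 in MTO100 and 1295 and 2390.0 in MTO101 in full medium, and 3205 and 4122 in MTO100 and 1987 and 2428 in MTO101 without EGF. The line, not the medium, separated these values, with MTO100 above MTO101 in both media. The medium effect was 0.14 ± 0.21 (SE) log2 (adjusted p 0.604, limma), with a 95% interval of -0.32 to 0.60, so a change of the size seen for Insr lies outside it.

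Erbb3 read 1168 and 1455 in MTO100 and 525 and 1220.3 in MTO101 in full medium, and 1392 and 954 in MTO100 and 1399 and 1257 in MTO101 without EGF. In MTO101 both libraries without EGF were above both in full medium, and in MTO100 the media overlapped. The change over both lines was 0.27 ± 0.28 (SE) log2 (adjusted p 0.435, limma), with an interval of -0.34 to 0.89.

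Errfi1 encodes MIG6, which binds the EGFR kinase domain, blocks it and is itself induced by ERK. Its RNA read 743 and 1138 in MTO100 and 615 and 835 in MTO101 in full medium, and 1118 and 978 in MTO100 and 805 and 702 in MTO101 without EGF, and the media overlapped in both lines. The change was 0.13 ± 0.18 (SE) log2 (adjusted p 0.59, limma), with an interval of -0.28 to 0.53. Among 20 other ERK-induced feedback and target genes 11 fell and 2 rose without EGF, with a median of -1.01 against 0.077 over all genes; Etv4, a transcription factor gene, fell from 1360.4 ± 495 to 91 ± 40.2 normalised reads (mean ± SD, n = 4; log2 -3.93, adjusted p 1.61e-05) and the cyclin gene Ccnd1 from 8293 ± 1798 to 3638 ± 1256 (log2 -1.23, adjusted p 0.000147).

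Lrig3 encodes a membrane protein related to LRIG1, which promotes the breakdown of ERBB receptors. It read 97.5 and 153 in MTO100 and 278 and 543 in MTO101 in full medium, and 129 and 132 in MTO100 and 339 and 361 in MTO101 without EGF. Values without EGF lay inside the full-medium range of their own line, and the change was -0.027 ± 0.24 (SE) log2 (adjusted p 0.937, limma). Of 27 tested genes on a list of other ERBB and MET adaptors and regulators, 9 rose and 2 fell, with a median of 0.17, the count higher again near the share of all genes. The docking protein gene Gab1 rose from 612 ± 92.7 to 1253 ± 89.9 normalised reads (log2 1.04, adjusted p 0.000372), Lrig2 from 177 ± 61.3 to 409 ± 38.3 (log2 1.26, adjusted p 0.0019), and Mst1r, the receptor gene most closely related to Met, from 95.5 ± 96 to 374 ± 147 (log2 2.63, adjusted p 0.000492).

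Met encodes the receptor for hepatocyte growth factor. Its RNA read 846 and 856 in MTO100 and 234 and 600.3 in MTO101 in full medium, and 1065 and 742 in MTO100 and 894 and 814 in MTO101 without EGF. In MTO101 both libraries without EGF were above both in full medium, whereas in MTO100 the 4 values were mixed. The change over both lines, 0.62 ± 0.31 (SE) log2, did not pass (adjusted p 0.112, limma). Within MTO101, in a fit that held both lines, the change was 1.18 with an adjusted p of 0.0261 (limma). A direct test of the difference between the lines gave 1.12 ± 0.52 (SE) log2 with an adjusted p of 0.35, so the lines were not shown to differ.

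Insr read 389 and 596 in MTO100 and 321 and 723 in MTO101 in full medium, and 959 and 822 in MTO100 and 933 and 1096 in MTO101 without EGF. Every library without EGF was above every library in full medium, the only 1 of the 10 genes for which the media did not overlap over both lines. The share of all genes that separate in this way was not counted, so nothing is read from that. The change was 0.97 ± 0.25 (SE) log2 (adjusted p 0.00752, limma), a 1.96-fold rise, and it kept its call without each of the 8 libraries in turn, at 0.72 to 1.19. Tested line by line, Insr was called in MTO101 and not in MTO100.

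Igf1r, whose product binds IGF1 and IGF2, read 296 and 617 in MTO100 and 105 and 272 in MTO101 in full medium, and 574 and 904 in MTO100 and 232 and 369.9 in MTO101 without EGF. Each library without EGF was above its own line and pool in full medium, by 0.44 to 1.14 log2, but MTO100 lay above MTO101 and pool 2 above pool 1, so the media overlapped in both lines. The change of 0.77 ± 0.33 (SE) log2 did not pass (adjusted p 0.0719, limma). With line and pool pairs as a replicate block it passed, at an adjusted p of 0.0109, and with a pool term at 0.00644.

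Irs1 read 134 and 345 in MTO100 and 289 and 677 in MTO101 in full medium, and 534 and 507 in MTO100 and 814 and 1030.4 in MTO101 without EGF. Within each line both libraries without EGF were above both in full medium, while MTO101 pool 2 in full medium exceeded MTO100 without EGF. The change was 1.16 ± 0.31 (SE) log2 (adjusted p 0.0106, limma), and it kept its call without each library in turn. It missed the threshold when the line term was dropped, at an adjusted p of 0.0782 (limma). Within each line, in a fit that held both lines, it also missed, at 0.0535 in MTO100 and 0.0833 in MTO101.

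Irs2, the second widely used adaptor of these receptors, read 85.9 and 181 in MTO100 and 80.6 and 175 in MTO101 in full medium, and 108 and 74.7 in MTO100 and 112 and 144 in MTO101 without EGF. The media overlapped in both lines and the change was -0.19 ± 0.33 (SE) log2 (adjusted p 0.652, limma), with an interval of -0.90 to 0.52. The interval does not reach the rise fitted for Irs1.

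**Figure D2:**
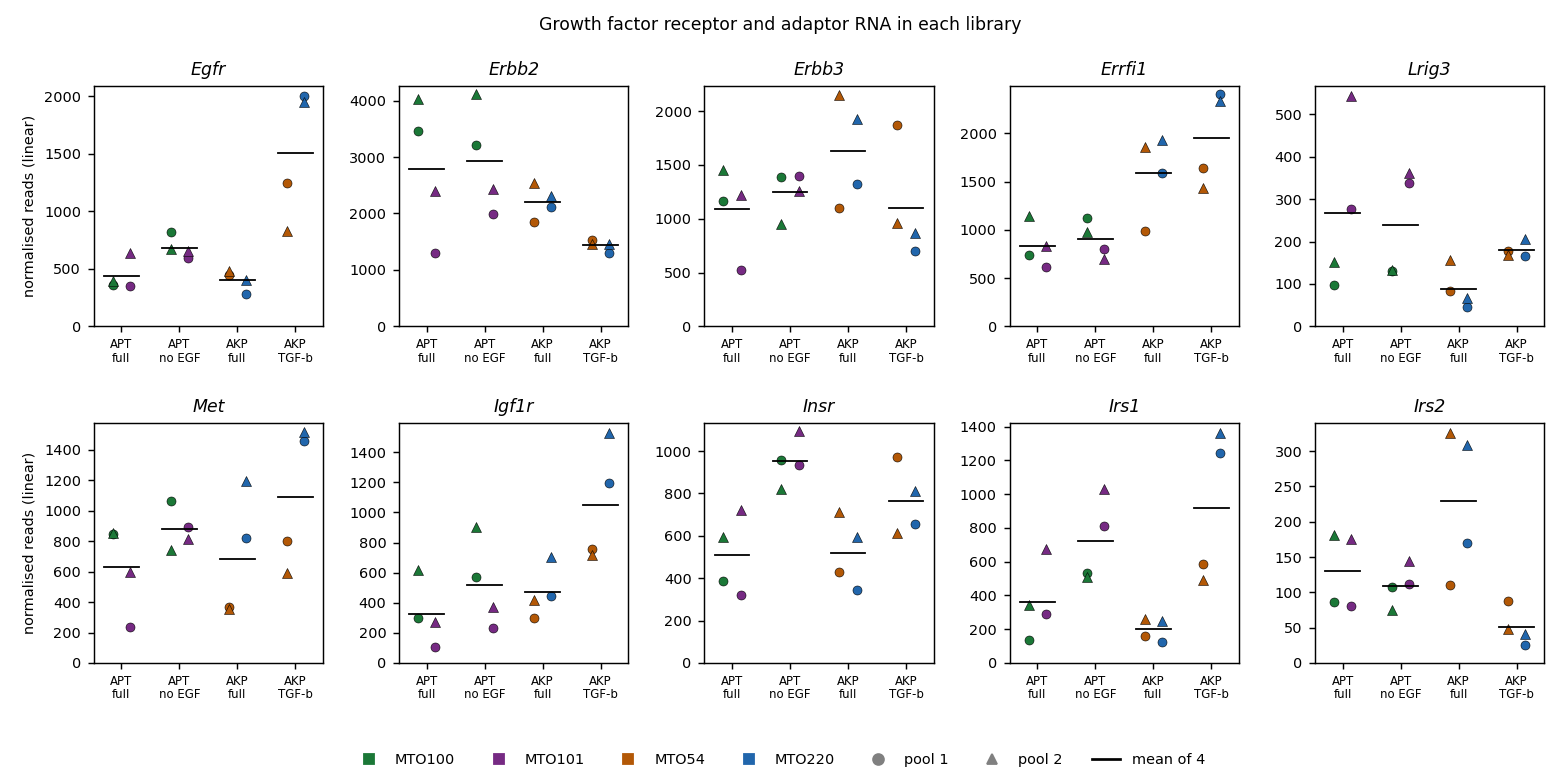
Each panel gives 1 gene's normalised reads (linear axis from 0) in the 16 libraries, with colour for the line, circles for pool 1, triangles for pool 2 and a bar for the mean of 4. In the Insr panel all 4 libraries without EGF lie above the 4 APT libraries in full medium, and in the Egfr, Irs1, Igf1r and Lrig3 panels all 4 AKP libraries in TGF-beta medium lie above the 4 in full medium.

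Around the members, genes of the insulin and IGF axis also moved when EGF was removed. The genes named here are those of the smallest p on their list, so their changes are not set against those of the receptors. Pappa and Insrr had full-medium means under 10, the filter's value, and passed the filter largely through the libraries without EGF. Of 17 tested genes on that list 5 rose and 5 fell, with a median of 0.35, both counts near the 26.8% and 21.7% of all genes. Igf1, the ligand of IGF1R, rose from 961 ± 857 to 4408 ± 2598 normalised reads (log2 2.52, adjusted p 1.89e-05), and Pappa, a protease that frees IGF from its binding proteins, from 7.57 ± 3.24 to 328 ± 98.6 (log2 5.28, adjusted p 3.68e-06). Insrr, an orphan relative of the insulin receptor, rose from 6.17 ± 6.06 to 237 ± 230.4 (log2 5.19, adjusted p 2.49e-05), and the binding protein gene Igfbp4 fell from 7139.5 ± 3144 to 1437 ± 696 (log2 -2.33, adjusted p 7.75e-06).

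Of 25 PI3K and AKT genes 8 rose and 1 fell, with a median of 0.041; the count higher is near the 26.8% of all genes called higher. The regulatory subunit genes Pik3r1 and Pik3r3 rose from 727 ± 231 to 1893 ± 353 (log2 1.42, adjusted p 0.000202) and from 1213 ± 301 to 3108 ± 387 normalised reads (log2 1.39, adjusted p 0.000274). Of 22 FOXO target genes 7 rose and 2 fell, with a median of 0.47, and here too the count higher is near that share. Among them Fbxo32, a ubiquitin ligase gene, rose from 1277 ± 616 to 6287 ± 3973 (log2 2.16, adjusted p 4.57e-05) and Ccnd2 fell from 1173 ± 347 to 337 ± 286 (log2 -2.29, adjusted p 0.000283).

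Other receptor tyrosine kinases counted 7 genes higher and 1 lower of 24 tested, with a median of 0.47; the count higher is near the 26.8% of all genes. Ret rose from 109.6 ± 37.4 to 560.4 ± 217 normalised reads (log2 2.32, adjusted p 5.85e-05) and Pdgfra from 53.3 ± 52.2 to 269 ± 255 (log2 2.12, adjusted p 0.000757). Among 5 tested EGF family ligand genes 3 rose and none fell, with a median of 1.20: Tgfa went from 703 ± 237 to 1959.9 ± 891 (log2 1.42, adjusted p 0.00234), Btc from 129 ± 45 to 288 ± 58.9 (log2 1.20, adjusted p 0.00112) and Areg from 50.6 ± 33 to 112 ± 56.3 (log2 1.21, adjusted p 0.00263). The 11 RAS to ERK core genes split into 2 higher and 2 lower, with a median of -0.048.

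Cell type markers and division genes moved in the same libraries. The 20 S phase genes all fell without EGF, with a median of -1.82. Of 10 epithelial markers 0 rose and 2 fell, with sums of 100867 to 182044 in full medium and 125016 to 144731 without EGF. Of 6 tested enteroendocrine markers 5 rose, and the summed level of the list was 169 to 313 normalised reads in full medium and 1710.0 to 2270.1 without EGF, with Sst at 0 in both. Of 9 tested Paneth cell markers 8 rose, with sums of 2731 to 3875 in full medium and 9874 to 17988 without EGF. Of 3 tested fibroblast markers 2 rose, with sums of 585 to 676 in full medium and 656 to 1173 without EGF, while Lum was at 0 in every APT library and Col1a1, Col1a2, Dcn, Thy1 and Fap stayed under 10. Tuft cell markers counted 3 of 6 higher and immune markers 1 of 2, with immune sums of 11.2 to 126 in full medium and 152 to 595 without EGF and Cd4 and Cd8a at 0 in both. Stem cell markers counted 2 higher and 2 lower of 11, with sums of 21549 to 39207 in full medium and 53292 to 56076 without EGF, and goblet cell markers 3 higher and 3 lower of 12, with sums of 1827 to 7480.4 in full medium and 9227 to 14886 without EGF. Endothelial markers counted 2 higher and 1 lower of 4, with sums of 884 to 1111 in full medium and 1258 to 2002 without EGF and Emcn at 0 in both. The part of these cell types in the changes of Egfr, Insr and Irs1 was not tested. RNA concentration also differed, from 168 to 1586 ng/µl in full medium and from 13.2 to 354 ng/µl without EGF, and its part was not tested.

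In AKP organoids, which carry an intact TGF-beta receptor, the comparison addresses how the same receptor RNAs stand when the receptor inhibitor is replaced by TGF-beta. In TGF-beta medium 7 of the 10 RNAs changed: Egfr, Irs1, Igf1r, Lrig3 and Met rose by 3.6-fold, 4.37-fold, 2.23-fold, 2.22-fold and 1.68-fold, and Irs2 and Erbb2 fell to 0.225 and 0.657 of their full-medium level. Erbb3, Errfi1 and Insr did not pass. Of the 13725 genes tested 52.6% were called in either direction, 27% higher and 25.7% lower (limma-trend, Benjamini-Hochberg), beside 5 of 10 higher and 2 of 10 lower here. The median change of the 10 was 0.67 log2, against 0.018 over all genes tested. Within MTO54, in a fit that held both lines, Egfr (1.13), Irs1 (1.39), Igf1r (1.05), Met (0.92) and Irs2 (-1.52) were called (limma, log2 changes). Lrig3 (0.60, adjusted p 0.191) and Erbb2 (-0.53, adjusted p 0.0588) were not called there (limma). MTO220, the line whose Trp53 level stood apart, still entered the spread of that fit. Within MTO220, in the same fit, 7 members were called, with Erbb3 lower (-1.03, adjusted p 0.0347) and Met not called (0.58, adjusted p 0.0531). With the pools of each line averaged, Egfr, Igf1r, Irs1 and Irs2 kept their calls, and Lrig3, Met and Erbb2 did not.

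Egfr read 448 and 480.4 in MTO54 and 278 and 399.7 in MTO220 in full medium, and 1249 and 828 in MTO54 and 2003 and 1949.5 in MTO220 in TGF-beta medium, in normalised reads of pools 1 and 2. All 4 libraries in TGF-beta medium were above all 4 in full medium, and MTO220 was the higher line in TGF-beta medium and the lower in full medium by their means. The change was 1.85 ± 0.28 (SE) log2 (adjusted p 0.000453, limma). It was larger in MTO220 than in MTO54 by 1.43 ± 0.35 (SE) log2, with an adjusted p of 0.0297 for the difference, the only 1 of the 10 genes called where 8.2% of all genes were. That call was lost in 5 of the 8 fits that left out a library, in which the difference was 1.14 to 1.45 at adjusted p 0.0603 to 0.126: the pool 1 library of MTO220 in full medium, the pool 2 library of MTO54 in full medium, the pool 2 library of MTO54 in TGF-beta medium and either library of MTO220 in TGF-beta medium.

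Erbb2 read 1847 and 2539 in MTO54 and 2119.7 and 2317 in MTO220 in full medium, and 1532 and 1466 in MTO54 and 1299 and 1467 in MTO220 in TGF-beta medium. All 4 values in TGF-beta medium were below all 4 in full medium, and the change was -0.61 ± 0.14 (SE) log2 (adjusted p 0.0053, limma). Erbb3 read 1098 and 2155 in MTO54 and 1322 and 1931 in MTO220 in full medium, and 1872 and 965 in MTO54 and 698 and 871 in MTO220 in TGF-beta medium. Both MTO220 libraries in TGF-beta medium were below their full-medium counterparts, whereas MTO54 went up in pool 1 and down in pool 2, and the change of -0.61 ± 0.29 (SE) log2 did not pass (adjusted p 0.101, limma).

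Errfi1 read 986 and 1855 in MTO54 and 1587 and 1934 in MTO220 in full medium, and 1637 and 1437 in MTO54 and 2403 and 2334 in MTO220 in TGF-beta medium. Only in MTO220 were both TGF-beta libraries above both in full medium, and the change of 0.31 ± 0.20 (SE) log2 did not pass (adjusted p 0.206, limma), with an interval of -0.12 to 0.74. Lrig3 read 84.1 and 156 in MTO54 and 46 and 67.5 in MTO220 in full medium, and 178 and 169 in MTO54 and 165 and 207 in MTO220 in TGF-beta medium. The media did not overlap, and the rise was 1.15 ± 0.30 (SE) log2 (adjusted p 0.00886, limma). Its relative Lrig1, which marks crypt stem and progenitor cells, went the other way, from 3826 ± 2374 to 356 ± 215 normalised reads (log2 -3.41, adjusted p 6.09e-07).

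Met read 369 and 355 in MTO54 and 819.6 and 1199 in MTO220 in full medium, and 801 and 589 in MTO54 and 1457 and 1516 in MTO220 in TGF-beta medium. Within each line TGF-beta medium was above full medium, but full-medium MTO220 exceeded MTO54 in TGF-beta medium. The rise was 0.75 ± 0.18 (SE) log2 (adjusted p 0.00493, limma), and without a line term its adjusted p was 0.222.

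Igf1r read 301 and 419 in MTO54 and 447 and 706 in MTO220 in full medium, and 758 and 716 in MTO54 and 1194 and 1526 in MTO220 in TGF-beta medium. The media did not overlap, and the rise was 1.16 ± 0.19 (SE) log2 (adjusted p 0.0007, limma). Insr read 428 and 713 in MTO54 and 346 and 595 in MTO220 in full medium, and 972 and 615 in MTO54 and 655 and 810.4 in MTO220 in TGF-beta medium. The media overlapped in MTO54, where pool 2 was lower in TGF-beta medium, and the change of 0.58 ± 0.24 (SE) log2 did not pass (adjusted p 0.0634, limma).

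The adaptors moved apart. Irs1 read 159 and 262 in MTO54 and 126 and 248 in MTO220 in full medium, and 587 and 489.7 in MTO54 and 1241 and 1362 in MTO220 in TGF-beta medium, and the rise of 2.13 ± 0.33 (SE) log2 (adjusted p 0.00047, limma) left no overlap between media. Irs2 read 110.3 and 326 in MTO54 and 170.1 and 309 in MTO220 in full medium, and 87.5 and 48.8 in MTO54 and 25.8 and 40.9 in MTO220 in TGF-beta medium. All 4 values in TGF-beta medium were below all 4 in full medium, and the change was -2.15 ± 0.42 (SE) log2 (adjusted p 0.00185, limma). Irs1 was thus above Irs2 per length in TGF-beta medium, at 5.15 ± 2.54 against 0.411 ± 0.216 RPKM, while in full medium the ranges overlapped at 1.03 ± 0.382 and 1.72 ± 0.848. The MTO220 rise of Irs1 exceeded that of MTO54 by 1.48 ± 0.46 (SE) log2, which did not pass (adjusted p 0.0778, limma) but passed with a pool term as the replicate block, at 0.0484.

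**Figure D3:**
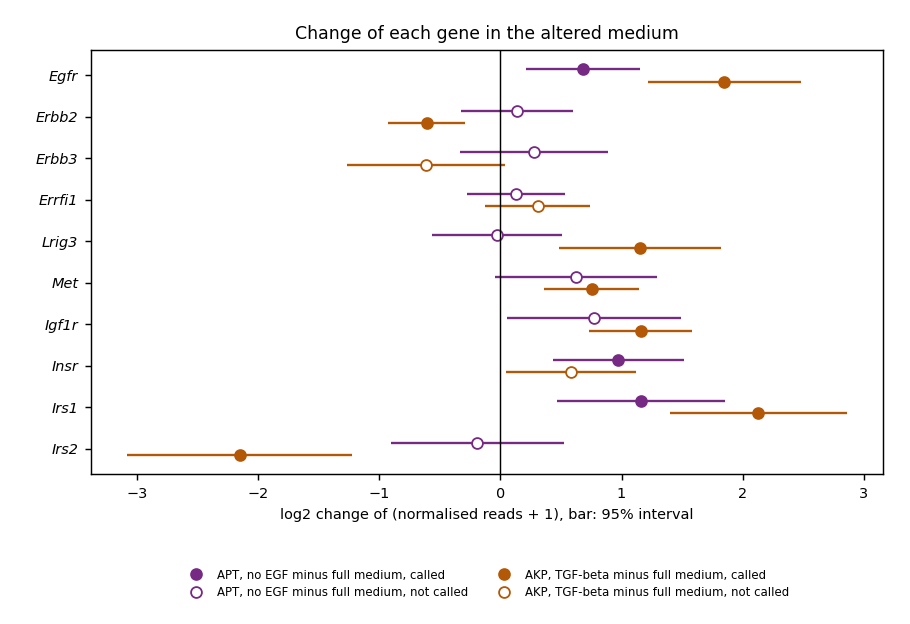
Points give each gene's log2 change between the changed and full medium in APT (purple) and AKP (orange) organoids, with bars for the 95% interval of limma's estimate from 8 libraries and filled points for calls at an adjusted p under 0.05. Filled points lie to the right for Egfr, Insr and Irs1 in APT, and Irs2 lies farthest to the left in AKP, at -2.15.

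Counts of the lists around the members stand beside the 27% of all genes called higher and 25.7% called lower in TGF-beta medium. The lists were chosen with earlier results of these data known, so nothing is read from their counts against these shares. Of 27 tested ERBB and MET adaptors and regulators 13 rose and 4 fell, with a median of 0.41; the ubiquitin ligase gene Rnf41, whose product lowers ERBB3, rose from 681 ± 113 to 1649.7 ± 166 normalised reads (log2 1.28, adjusted p 0.000142) and the adaptor gene Grb7, which neighbours Erbb2 on the chromosome in mouse and human, fell from 2503 ± 296 to 1117 ± 299 (log2 -1.20, adjusted p 0.000467). Of 13 insulin and IGF axis genes 7 rose and 2 fell, with a median of 0.71; Grb10, an inhibitor of both receptors, rose from 493 ± 258 to 1577 ± 894 (log2 1.64, adjusted p 1.57e-05) and Igf1 from 20.4 ± 21.9 to 344 ± 339.9 (log2 4.44, adjusted p 3.51e-05). Of 20 other receptor tyrosine kinases 11 rose and 1 fell, with a median of 1.05; Tyro3 rose from 90.9 ± 14.1 to 361 ± 36.8 (log2 1.98, adjusted p 1.94e-05) and Fgfr4 fell from 136 ± 117 to 18.5 ± 11.6 (log2 -2.56, adjusted p 0.000239).

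Of 20 FOXO target genes 13 rose and 3 fell, with a median of 1.06, among them Fbxo32, from 69.9 ± 14 to 2031 ± 1516 (log2 4.47, adjusted p 4.39e-06), and the cell death gene Bcl2l11, from 659.6 ± 389 to 2469.5 ± 359.7 (log2 2.06, adjusted p 8.55e-05). Eif4ebp1 on the same list fell from 4837 ± 1488 to 752 ± 185 (log2 -2.66, adjusted p 1.58e-05). The 25 PI3K and AKT genes split into 4 higher and 4 lower, with a median of 0.18, and the 20 ERK-induced genes into 4 higher and 1 lower, with a median of 0.065. Of 6 EGF family ligand genes 3 rose and none fell, and Hbegf went from 310.5 ± 96.8 to 1180.0 ± 626 (log2 1.80, adjusted p 0.00147).

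Cell composition markers differed here too. Of 20 S phase genes 19 fell, with a median of -1.22. Epithelial markers counted 3 higher and 4 lower of 10, with sums of 105950 to 184903 in full medium and 123099 to 234486 in TGF-beta medium. All 9 tested goblet cell markers fell, with a summed level of 3808 to 29277 normalised reads in full medium and 532 to 805 in TGF-beta medium. All 4 tested Paneth cell markers fell, with sums of 996 to 21789.9 in full medium and 197 to 660.3 in TGF-beta medium, and with Defa17, Defa22 and Defa26 at 0 in TGF-beta medium. All 3 tested fibroblast markers rose, with sums of 423 to 715 in full medium and 893 to 1219 in TGF-beta medium, with Lum at 0 and Col1a2, Col3a1, Thy1 and Fap under 10 throughout TGF-beta medium. Both tested tuft cell markers rose, with sums of 210.4 to 416 in full medium and 1076 to 4557 in TGF-beta medium, with Il25 at 0. Stem cell markers counted 3 higher and 4 lower of 12, with sums of 25922 to 41549.9 in full medium and 27738 to 34040.3 in TGF-beta medium, and endothelial markers 1 lower of 3, with sums of 461 to 1762 in full medium and 149 to 486 in TGF-beta medium. No immune marker reached the filter, and their sums were 8.93 to 300.2 in full medium and 9.94 to 40.9 in TGF-beta medium. The part of these cell types in the changes of the members was not tested. RNA concentration was 423 to 2344 ng/µl in full medium and 87.8 to 1536 ng/µl in TGF-beta medium, and its part was not tested.

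Because the changed media share the later day, the APT and AKP responses were set against each other in 1 fit of all 16 libraries. Each changed medium was given to only 1 genotype, so medium, genotype and line cannot be told apart in a difference of these responses. The responses differed for 3 of the 10 genes, where 22.2% of all 15087 genes differed. Irs2 was higher in the EGF response by 1.96 ± 0.58 (SE) log2 (adjusted p 0.0238, limma), Egfr lower by a difference of -1.17 ± 0.38 (SE) (adjusted p 0.04) and Lrig3 by -1.18 ± 0.41 (SE) (adjusted p 0.0481). Erbb2 differed by 0.75 ± 0.26 (SE) at an adjusted p of 0.05, which did not pass, and passed with a pool term as the replicate block (0.0187).

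For Insr, Irs1, Igf1r and Met the differences of 0.39, -0.97, -0.39 and -0.13 log2 did not pass, with intervals of -0.40 to 1.19, -2.05 to 0.12, -1.28 to 0.51 and -0.96 to 0.70. The 3 calls depended on single libraries: leaving out each of the 16 in turn left between 0 and 3 members called, Irs2 being called in 11 of the 16 fits, Egfr in 6 and Lrig3 in 5. No member was called without the pool 1 library of MTO220 in TGF-beta medium, the pool 2 library of MTO220 in full medium or the pool 2 library of MTO101 without EGF.

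The lines of 1 genotype differed before any change of medium. In full medium Lrig3 was higher in MTO101 than in MTO100, at 278 and 543 against 97.5 and 153 normalised reads, by 1.66 ± 0.34 (SE) log2 (adjusted p 0.00619, limma). Erbb2 was lower in MTO101, by a difference of -1.09 ± 0.29 (SE) (adjusted p 0.0277). These were 2 of the 10 genes, where 14.1% of all genes were called, and neither kept its call without the pool 1 library of MTO100, at 1.34 and -1.20. Erbb2 also lost its call without the pool 2 library of MTO100 (-0.98) or the pool 1 library of MTO101 (-0.64), and without the pool 2 library of MTO101 5 members were called.

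Met was higher in MTO220 than in MTO54, at 819.6 and 1199 against 369 and 355 normalised reads, by 1.45 ± 0.23 (SE) log2 (adjusted p 0.00136, limma), the only 1 of the 10 where 17.8% of all genes were called. Lrig3 was lower in MTO220 by a difference of -1.03 ± 0.33 (SE), which did not pass (adjusted p 0.0576) and passed with a pool term as the replicate block (0.0351). Igf1r, likewise, was lower in MTO101 than in MTO100 by a difference of -1.33 ± 0.47 (SE) (adjusted p 0.0949), and passed with the pool term (0.00705).

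Between the lines of a genotype the responses to the medium differed for no member in APT, where 2.34% of all genes were called; no member had an unadjusted p under 0.05, and edgeR and DESeq2 called none either. Without the pool 2 library of MTO101 in full medium 2 members were called, Met and Erbb3. The AKP and APT genotypes, compared in full medium over the means of 2 lines each, gave no call among all 13898 genes (0%); 1437 genes, Errfi1 and Irs2 among them, had an unadjusted p under 0.05. Errfi1 was higher in AKP by 0.94 ± 0.23 (SE) log2 (adjusted p 0.339, limma), at 986 and 1855 in MTO54 and 1587 and 1934 in MTO220 against 743 and 1138 in MTO100 and 615 and 835 in MTO101. edgeR called 0 genes and DESeq2 740, Errfi1 being the only member, and with the 8 libraries and a pool term as the replicate block Errfi1 had an adjusted p of 0.0285.

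The pools, which are consecutive passages, separated the members in full medium. This comparison was added after the values had been seen. With a term for each line, 7 of the 10 RNAs were higher in pool 2 and none lower: Irs2 by 1.15 ± 0.18 (SE) log2, Irs1 by 1.07 ± 0.17 (SE), Igf1r by 0.89 ± 0.18 (SE), Insr by 0.82 ± 0.15 (SE), Erbb3 by 0.76 ± 0.16 (SE), Lrig3 by 0.76 ± 0.18 (SE) and Errfi1 by 0.56 ± 0.14 (SE), at adjusted p of 0.0115 to 0.0334 (limma). Of all 13725 genes 5.3% were called higher in pool 2 and 10.8% in either direction. Since the comparison was prompted by these values, nothing is read from the members' count against that share. The differences of Egfr, Erbb2 and Met, 0.40, 0.42 and 0.47, did not pass.

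In full medium 39 of the 40 values of 10 genes in 4 lines were higher in pool 2, the exception being Met in MTO54, at 369 and 355 normalised reads. In the changed media 18 of 40 were. The same counts over all genes were not made, and the 10 genes share the same pairs of libraries, so nothing is read from these counts. Irs2, for example, went from 110.3 to 326 between pools in MTO54 in full medium and from 87.5 to 48.8 in TGF-beta medium. Without either MTO101 library the count of called members was 3 (Insr, Irs1 and Irs2), and without either MTO220 library it was 4, with Igf1r added. RNA concentration in full medium was 168 to 969 ng/µl in pool 1 and 1065 to 2344 ng/µl in pool 2. The deposited column names also begin with a different prefix in each pool. Passage, pool, what this prefix marks and RNA concentration cannot be told apart.

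The rises with the changed media were smaller in value in pool 2. Fitted in pool 1 alone, EGF withdrawal changed Egfr by 0.96, Insr by 1.42 and Irs1 by 1.74 log2, with Igf1r called as well; in pool 2 alone the values were 0.40, 0.53 and 0.58 and no member was called. In TGF-beta medium Egfr read 2.16 in pool 1 alone and 1.53 in pool 2 alone, Irs1 2.58 and 1.68, both called in each, and Irs2 -1.50, not called, and -2.80, called.

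Tested directly, the difference of the response between pools was called for no gene in either genotype (0% of 14373 in APT and 0% of 13725 in AKP), also by edgeR, while 925 and 333 genes had an unadjusted p under 0.05. For the 10 members the pool 2 response minus the pool 1 response was negative throughout, from -1.17 to -0.23 log2 in APT and from -1.30 to -0.24 in AKP. In APT 5 of the 10 had an unadjusted p under 0.05 (Erbb3, Errfi1, Insr, Irs1 and Irs2) and in AKP 1 (Insr). The medium comparisons share their full-medium libraries with the line, genotype and pool comparisons and are not independent of each other.

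**Figure D4:**
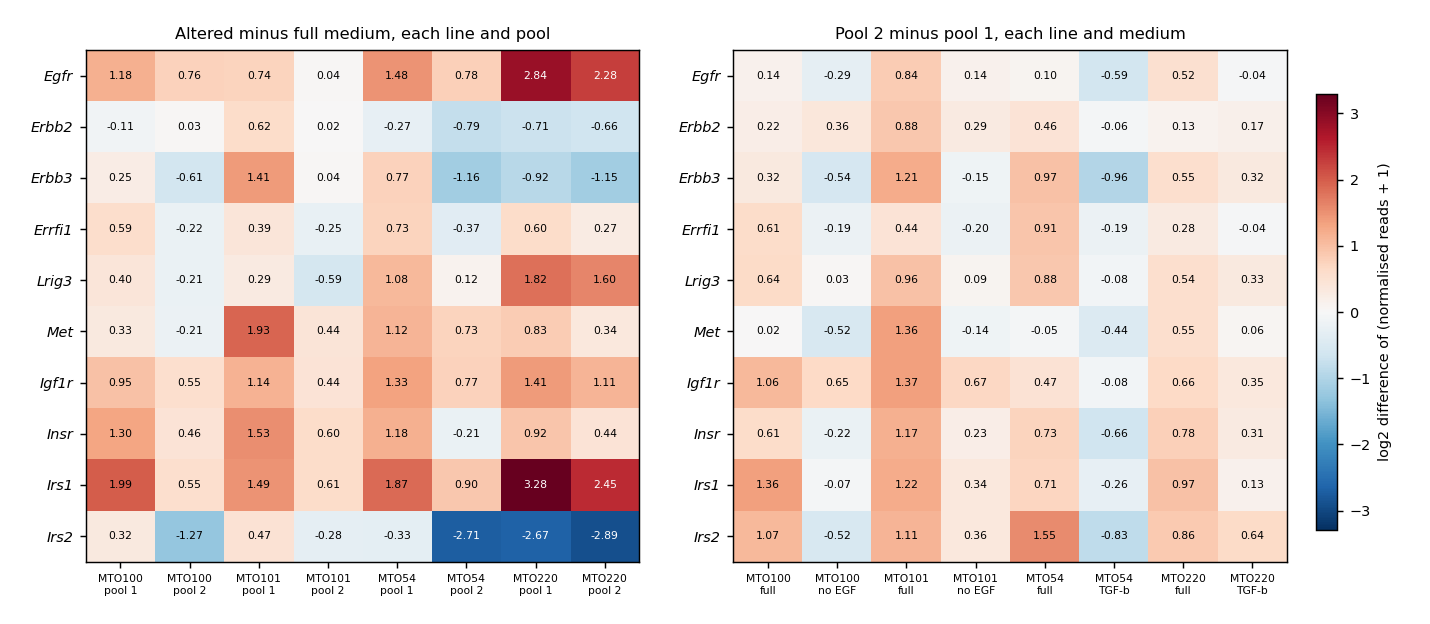
The left map gives the log2 difference of (normalised reads + 1) between the changed and full medium for each gene, line and pool, and the right map the difference between pool 2 and pool 1 for each gene, line and medium, both on 1 colour scale. In the right map the full-medium columns are above 0 in 39 of 40 cells, a count not made for all genes. In the left map Egfr, Irs1 and Igf1r are above 0 in all 8 columns.

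Across the 16 libraries, and as a description only, the members fell into several patterns of log2(value + 1). Irs1 followed Egfr with a Pearson r of 0.83 and Insr with 0.77, Igf1r followed Errfi1 with 0.79 and Irs2 followed Erbb3 with 0.74, while Irs2 and Egfr ran opposite at -0.70. The libraries share lines, media and pools, which all enter these values. Among 11119 genes with a mean of at least 100, the pair most like each member, with r over 16 libraries, were Vcl (0.96) and Lama3 (0.96) for Egfr, Map1b (0.96) and Garnl3 (0.95) for Irs1 and Hectd4 (0.97) and Herc2 (0.96) for Insr. For Errfi1 they were Fos (0.97) and Tcim (0.94), for Igf1r Dusp8 (0.92) and Fat1 (0.91), for Met Il6st (0.89) and Myo5b (0.89) and for Lrig3 Pdk4 (0.95) and Podxl (0.94). Erbb2 was most like Tmprss2 (0.92) and Phka2 (0.91), Erbb3 most like Vgll4 (0.88) and Trappc10 (0.88), and Irs2 most like Zxdb (0.93) and Helb (0.92).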

How the data were processed

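RNA from 16 organoid libraries was analysed, grouped by line, medium and pool from the labels. Per the labels' protocols, poly(A) selection preceded an unstranded library kit with no molecular identifiers. STAR 2.3.0e, DESeq2 1.22.1 and mm10 are listed, without roles, per the submitters' processing notes; the annotation and counting program are not given in the sources used here. The authors deposited a signal value per gene and library, a read count divided by a size factor: 100% of values were whole multiples of 1 step per library within 0.001, and the recovered reads gave the depths (17056053 to 22251986) and the count tests among the alternatives. The design had foreseen edgeR for whole counts; since the values are normalised, limma was used.

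The test used log2(value + 1), and fold changes are on that scale. Genes needed a value of 10 in 4 libraries (2 lines for the genotype comparison). The fit was limma-trend 3.58.1 (R 4.3.3, robust empirical Bayes, Benjamini-Hochberg over all genes; adjusted p under 0.05 called) and a term for each line. Alternatives used edgeR 4.0.16, DESeq2 1.42.0, other scalings, pseudocounts and filters, blocks and left-out libraries. A run of the fit on simulated counts held few changed genes and no pool effect, unlike these data. Nothing is read from that run. Intervals are limma's 95% intervals. Within a line, both media share pool and passage per the labels, so same-numbered pools are pairs; the reported calls come from the fit without a pool term, and pool and pair blocks were alternatives. Same-pool deviations correlated at 0.207, 0.15, 0.0511 and 0.239 in MTO100, MTO101, MTO54 and MTO220. Symbols, positions and promoters came from RefSeq tables (GRCm38.p6) for 25275 of 27179 IDs (93.0%), and exon lengths from GENCODE. Without strand, reads of overlapping genes cannot be told apart; among genes overlapping a member in the table, the highest value was 36.8 normalised reads (Egfros), except Mien1, which shares 9 bases with Erbb2.

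Members and gene lists were chosen with earlier results of these data known. All 10 members are named in every comparison, up to 4 genes per list by smallest p, and the 2 genes of highest r per member. Some allele and marker details are not reported here.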

Additional observations from a re-analysis of the deposited data

Results flagged for a closer look

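Egfr in APT organoids in full medium had 1 library far from the other 3: MTO101 pool 2 stood at 635 normalised reads, against 354 to 397. Of the 40 groups of 4 libraries examined in this way (10 genes in 4 groups) this was the only one set apart, and chance sets apart about 1 in 20. Leaving out that high full-medium library could only enlarge the fitted rise without EGF, which was then 0.91 log2.

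The Egfr response to TGF-beta medium was larger in MTO220 than in MTO54, by 1.43 log2 in limma's test of the difference. The response to EGF withdrawal in APT and the response to TGF-beta medium in AKP differed for Egfr (-1.17 log2), Lrig3 (-1.18) and Irs2 (1.96), each by the test of the difference. What lies behind these differences was not tested.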

How the results depend on the processing

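Of 1620 member changes recomputed under the alternatives 1485 stayed on their side of the threshold, 88 lost a call, 47 gained one and none that was called changed sign; 72 uncalled values took the other sign. Members called numbered 3 for EGF withdrawal, but 1 in the test within MTO100 and 0 in pool 2 alone (2 to 4 without each library). For TGF-beta medium they numbered 7, but 4 with pools averaged and 4 in pool 2 alone (7 to 9). The AKP against APT count of 0 was 1 with the 8 libraries and a pool block and 1 with DESeq2 (0 to 0 without each library). The EGF response of MTO101 against MTO100 gave 0 (0 to 2), and the TGF-beta response of MTO220 against MTO54 gave 1, but 2 with DESeq2, 0 scaled to library totals and 2 with the pool block (0 to 3). The APT minus AKP response gave 3, but 1 scaled to library totals (0 to 3). MTO101 against MTO100 in full medium gave 2, but 4 with DESeq2 and 1 scaled to library totals (0 to 5), and MTO220 against MTO54 gave 1, but 2 with DESeq2 and 2 with the pool block (1 to 2). Pool 2 against pool 1 gave 7 (3 to 5). The cause was not tested, beyond the smaller number of libraries in fits that leave some out. Fits of 1 pool have 4 libraries, while tests within 1 line come from the fit of all 8 libraries of the genotype. The genotype comparison called 0 genes in limma and edgeR, 740 in DESeq2 and 917 with the pool block. The replicate block changed the calls of Igf1r without EGF and in MTO101 against MTO100, of Irs1 in the TGF-beta response difference, of Erbb2 in the APT minus AKP response, of Errfi1 between genotypes and of Lrig3 in MTO220 against MTO54, and no other member call. Scaling to library totals shifted the median of all genes without EGF from 0.077 to 0.31 log2 and in TGF-beta medium from 0.018 to 0.14; beside that shift Igf1r (1.00) was then called without EGF and Insr (0.70) in TGF-beta medium. The pool fits and pool comparisons were chosen after seeing the data. The lowest member values were 25.8 normalised reads for Irs2 and 46.0 for Lrig3, and how far depth limits their tests was not tested.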
